A study of Mus musculus with 20 samples.

Results

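The erythroid and heme synthesis genes are a set of 40 genes that act in the making of red blood cells, found in the table by gene symbol, and 38 of the 40 were among the 14793 genes measured in the knee joint. Ahsp and Icam4 were not analysed here. Bulk RNA sequencing was performed on the right knee joints of 20 male C57BL/6Nci mice, 12 weeks old at surgery, in 4 groups of 5 mice. All 20 mice had surgical destabilization of the medial meniscus, which induces osteoarthritis, so that the control joints were operated joints too. Control joints received needle insertion alone. The other joints were injected in weeks 3 and 5 after surgery with mesenchymal stromal cells grown from pooled adipose tissue of a single pool of donors. These cells were left non-activated (MSC), or were activated beforehand through TLR3 with polyinosinic-polycytidylic acid (TLR3-MSC), or through STING with 2′,3′-cGAMP (STING-MSC). Each joint was taken en bloc, with cartilage, synovium, capsule and subchondral bone, which holds marrow. The study's methods place collection at the end of the experiment, and its results place it on the day after an injection. The study's methods call the 5 samples of a group biological replicates. Each test between groups sets a difference against the spread between joints.

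Red blood cells arise in the marrow from erythroid precursors, which divide, fill with hemoglobin, expel their nucleus and enter the blood. Hemoglobin joins alpha and beta globin chains to heme, which is built from glycine and succinyl-CoA by a chain of enzymes that starts with Alas2 and ends with Fech in the mitochondrion. The transcription factors Gata1, Tal1 and Klf1 drive this program, and erythropoietin and transferrin-bound iron sustain it through the receptors Epor and Tfrc. In a whole joint, the globin and other red cell transcripts can come from marrow precursors and from young red cells in blood. Of the genes of this set measured here, 16 are also used by cells other than red cell precursors, and the source of the transcripts was not tested.

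Promoter sequence was not part of the rule by which the members were chosen. The 22 members that are used mainly by red cell precursors were set apart from 16 members that other cells also use, called broadly expressed members here. These include the heme synthesis enzymes after Alas2, but also genes such as Tmod1 and Bpgm, whose use by most cells was not tested. In the 250 bases before the start of the canonical transcript, read from the GRCm39 genome, a GATA motif (AGATAA or AGATAG, and the same with T as first letter, TGATAA or TGATAG, on either strand) was present for 16 of the 22 (72.7%). It was present for 1 of the 16 broadly expressed members (6.25%), Fech, and for 3158 of 14770 genes of the table with an annotated start (21.4%). The sequence CCACACCC on either strand was present for 1 of 38 members, Hbb-bs, and for 3.32% of the 14770 genes. CCAAT on either strand was present for 52.6% of the members and 35.5% of all, and CCAAT shares no letters with a GATA motif in the windows shown. A match describes the letters alone. The windows of 3 members are given 5′ to 3′ on the strand of the gene, with GATA motifs in capitals, because these genes carry the first enzyme of heme synthesis, the anion exchanger and an erythroid factor. The motif starts 44 bases before the transcript for Alas2, 9 for Slc4a1 and 26 for Klf1. The window of Slc4a1 lies inside the annotated span of the gene, which a longer transcript extends.
Alas2 (chrX:149330121-149330370, plus strand): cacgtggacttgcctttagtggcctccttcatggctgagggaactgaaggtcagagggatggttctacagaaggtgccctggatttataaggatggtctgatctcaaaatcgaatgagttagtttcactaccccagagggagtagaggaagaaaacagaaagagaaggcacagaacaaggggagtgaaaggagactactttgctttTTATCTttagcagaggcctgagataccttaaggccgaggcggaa
Slc4a1 (chr11:102256107-102256356, minus strand): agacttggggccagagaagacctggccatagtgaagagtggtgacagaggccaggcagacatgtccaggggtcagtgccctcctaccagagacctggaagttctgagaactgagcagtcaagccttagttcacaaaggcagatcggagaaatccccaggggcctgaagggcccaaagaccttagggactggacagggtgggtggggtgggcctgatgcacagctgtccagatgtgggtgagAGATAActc
Klf1 (chr8:85628307-85628556, plus strand): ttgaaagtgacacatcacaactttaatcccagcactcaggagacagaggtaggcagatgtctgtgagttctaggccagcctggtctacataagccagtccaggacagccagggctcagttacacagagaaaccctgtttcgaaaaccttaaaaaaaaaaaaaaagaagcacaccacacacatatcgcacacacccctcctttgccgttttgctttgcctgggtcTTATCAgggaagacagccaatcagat

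The globins are pairs of near-identical copies, which bears on every level given for them. The coding sequences of Hba-a1 and Hba-a2 (426 bases) differed at 1 base and those of Hbb-bs and Hbb-bt (441 bases) at 1 base. The stretches around these bases are shown from coding base 361 to 401 for the alpha chains and 397 to 437 for the beta chains, with the differing base in capitals.
Hba-a1: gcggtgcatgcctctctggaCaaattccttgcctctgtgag
Hba-a2: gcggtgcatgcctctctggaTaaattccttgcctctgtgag
Hbb-bs: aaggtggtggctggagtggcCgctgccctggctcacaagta
Hbb-bt: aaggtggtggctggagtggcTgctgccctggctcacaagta
Of the windows of 150 bases in the canonical transcript, 61.0% of those of Hba-a1 were also found in Hba-a2, and 54.6% of those of Hbb-bs in Hbb-bt. The split of reads within each pair therefore depends on how the counting treated reads that match both copies, and single copies are uncertain. In addition, 11 of the 38 members overlap another coding gene in the annotation, namely Alas2 (Apex2), Klf1 (Gcdh), Rhd (Tmem50a), Kel (Llcfc1), Sptb (Plekhg3), Epor (Swsap1), Tmod1 (Tstd2), Ppox (B4galt3), Urod (Zswim5), Uros (Bccip) and Xpo7 (Npm2 and Dok2). The overlap is of whole spans, introns included, so whether these genes share counted bases was not tested. Whether the counting used strand is not given in the sources used here, so any reads shared between such genes could not be told apart.

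The members took from 3.00% to 6.71% of the reads of a joint, and the 4 globins alone from 2.25% to 5.09%. Joints held 27955496 to 52529973 reads on the genes of the table. No member was at 0 in any joint, and the lowest mean was 1017 normalized counts for Trim58. MSC joint 5 stood apart with 296 genes at 0, of which 239 were at 0 in this joint only, against 0 to 97 genes at 0 in the other joints, but none of these was a member. Per kilobase of canonical transcript, Hbb-bs (1097640 normalized counts per kilobase, mean of 20 joints) and Hba-a1 (738677) were the highest members. They were followed by Hbb-bt (86959), Slc4a1 (16869) and Alas2 (16215), and Trim58 (186) was the lowest. Markers of the other tissues sampled were present beside them: the summed normalized counts of 6 cartilage genes spanned 33277 to 712017 over the 20 joints, those of 8 osteoblast and osteocyte genes 81904 to 545860, and those of 8 skeletal muscle genes 783241 to 3225080.

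Among the globins, which form the protein part of hemoglobin, Hbb-bs (ENSMUSG00000052305, chr7:103475741-103477304, GRCm39) had normalized counts of 765984, 632657, 529707, 640711 and 944538 in the control joints, 923164, 532136, 864254, 729866 and 467327 after MSC, 858054, 499710, 570860, 956424 and 779843 after TLR3-MSC and 800719, 649915, 784762, 754540 and 891526 after STING-MSC. All 4 groups overlapped, and the lowest of the 20 joints was MSC 5. Hba-a1 (ENSMUSG00000069919, chr11:32233511-32234466) had 623867, 489912, 486663, 424191 and 742184 in the control joints, 663617, 344684, 707421, 623893 and 328225 after MSC, 650799, 409710, 433359, 619550 and 471424 after TLR3-MSC and 560911, 438667, 555754, 567485 and 760555 after STING-MSC. It was again lowest in MSC 5 and highest in STING-MSC 5. Group means of Hbb-bt were 61268, 59529, 60691 and 63388 and those of Hba-a2 8202, 7826, 7814 and 7414, in the order control, MSC, TLR3-MSC and STING-MSC. The ratio of Hbb-bs to Hba-a1 lay between 1.09 and 1.65 in all 20 joints, with group means of 1.28, 1.35, 1.41 and 1.36. The ratio of the copies Hba-a1 to Hba-a2 was less even, from 54.9 (MSC 4) to 133 (STING-MSC 5), on values whose split between copies is uncertain. Fewer red cell precursors in a joint and less RNA in each of them cannot be told apart in such bulk samples, here and in all results that follow.

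For heme synthesis, Alas2 (ENSMUSG00000025270, chrX:149330371-149353635), the erythroid enzyme of the first step, had normalized counts of 34162, 31125, 23892, 27376 and 47903 in the control joints, 37259, 19034, 41773, 33262 and 19263 after MSC, 50755, 27106, 25566, 39442 and 28148 after TLR3-MSC and 39586, 26210, 32548, 34899 and 41306 after STING-MSC. The 2 lowest of the 20 joints were MSC 2 and MSC 5, the highest was TLR3-MSC 1, and the groups overlapped throughout. The mean was 32892 ± 9239.6 in control, 30118 ± 10457 in MSC, 34203 ± 10759 in TLR3-MSC and 34910 ± 6001 in STING-MSC joints (SD, n = 5). The enzymes that follow varied with it from joint to joint. Alad, which condenses the product of Alas2 into porphobilinogen, ranged from 3137 (MSC 5) to 8059.8 (STING-MSC 5), with group means of 5315, 5008, 5183 and 6066 in the same order. Uros and Urod, which close and then decarboxylate the porphyrin ring, had group means of 2830.4, 2876, 3101 and 3480.1 and of 7347, 7069, 7149.6 and 8006. Cpox and Ppox, the oxidases that follow, had 11928, 11765, 12471 and 14062 and 5283, 5472, 5393 and 6331. Fech, which inserts iron into the ring, had 18238, 16539, 18570.1 and 19893, and Slc25a37, the mitoferrin that carries iron into the mitochondrion, 26933, 27582, 28374 and 31873. All 8 genes of this role had their highest group mean in the STING-MSC joints. The ratio of Fech to Alas2 stayed between 0.502 and 0.676 in the 20 joints, although Alas2 itself varied 2.67-fold. Both genes at the ends of the pathway therefore varied together from joint to joint.

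The receptors were low in the same MSC joints as Alas2. Tfrc, the transferrin receptor, had normalized counts of 21265, 18627, 17379, 17101 and 25799.6 in the control joints, 21816, 14122, 26983, 25103 and 14973 after MSC, 31655, 17629, 19176, 23827 and 18838 after TLR3-MSC and 27900.4, 20663, 23244, 21003 and 25482 after STING-MSC. It was lowest in MSC 2 and MSC 5 and highest in TLR3-MSC 1, as Alas2 was. Epor, the receptor for erythropoietin, had 3029.6, 2506, 2173, 1756 and 3821 in the control joints, 2903, 1892, 4237, 3752 and 1749.7 after MSC, 3982, 2174, 2109, 3260.5 and 2310.2 after TLR3-MSC and 3147, 2536, 3116, 3175 and 4116 after STING-MSC. The groups overlapped for both receptors, with a 95% interval of the STING-MSC to control difference of -0.15 to 0.65 for Tfrc and -0.22 to 0.84 for Epor on the log2 scale.

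Among the transcription factors, Klf1 (ENSMUSG00000054191, chr8:85628557-85631925), which switches on globin and membrane genes, had normalized counts of 5162, 4499, 4133, 2669 and 6543 in the control joints, 5458, 2959, 7561, 6975 and 2996 after MSC, 7644, 3696, 3444, 5413 and 3974 after TLR3-MSC and 5390.5, 4236, 5372, 5556 and 6408 after STING-MSC. Its lowest joint was control 4, followed by MSC 2 and MSC 5. Gata1 (ENSMUSG00000031162, chrX:7825499-7844311), the master regulator of the lineage, had 3926, 2953, 2812, 1955 and 4442 in the control joints, 3533, 2124, 4268, 4330.4 and 2046 after MSC, 4695, 2756, 2178, 3564 and 2555 after TLR3-MSC and 3643, 3068, 3590.3, 3827 and 4939 after STING-MSC. The 4 groups overlapped for both factors. Tal1, a partner of Gata1, had group means of 5602, 5772, 6210.2 and 7007, Nfe2, an activator of globin genes that megakaryocytes also use, 6104, 7782, 6699 and 7699, and Gfi1b, a repressor in erythroid and megakaryocyte precursors, 1497, 1454, 1589 and 1898. Of the 38 members, Nfe2 had the highest fold change of MSC over control, 0.32 on the log2 scale with a 95% interval of -0.11 to 0.75.

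Of the genes of the red cell membrane and its skeleton, Slc4a1 (ENSMUSG00000006574, chr11:102239650-102257030), the anion exchanger band 3, had normalized counts of 75398, 70833, 52694, 59270.4 and 115090 in the control joints, 80535, 42008, 92796, 80044 and 44779 after MSC, 130729, 61417, 54916, 84148 and 59201 after TLR3-MSC and 96806, 64493, 77549, 84886 and 105820 after STING-MSC. Its highest joint, TLR3-MSC 1, held 3.11 times the level of its lowest, MSC 2. Epb42, protein 4.2, ranged from 3749.7 (MSC 2) to 10988 (TLR3-MSC 1). Epb41, protein 4.1, ranged from 14497 (MSC 2) to 38968 (TLR3-MSC 1), Ank1, the ankyrin that ties band 3 to spectrin, from 8956 (MSC 2) to 20377 (control 5), and Sptb, beta spectrin, from 12639 (MSC 2) to 31156 (TLR3-MSC 1). Joint MSC 2 was the lowest for all 5 of these genes. Tmod1 (chr4:46038935-46116033), the tropomodulin that caps the actin filaments of the skeleton and does the same in muscle, had 2988, 3382, 2398, 2951 and 3485 in the control joints, 1949, 2085, 2202, 2710.0 and 3606 after MSC, 2744, 3436, 4386, 2559 and 2388 after TLR3-MSC and 4365, 4428, 2651, 3113 and 2801 after STING-MSC. It did not follow the other members: TLR3-MSC 3 was among its highest joints and MSC 1 was its lowest.

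The surface proteins of the blood groups varied with the other members. Group means were 4816, 4814, 4929 and 5529 for Rhag and 7863, 8205, 8251 and 9368 for Rhd, of the Rh complex, 5511, 6015, 5611 and 6591 for Kel, the Kell antigen, and 10525, 10889, 10961 and 12165 for Ermap, the Scianna antigen. Each of these 4 genes was lowest in MSC 2 or MSC 5 and highest in TLR3-MSC 1. Among the genes of maturation and red cell metabolism, Trim58 (chr11:58531291-58543231), a ubiquitin ligase that acts when the nucleus is expelled, had normalized counts of 874, 939, 666, 670.4 and 1228 in the control joints, 1034, 548, 1063, 888 and 611 after MSC, 1917, 883, 764, 1227 and 906 after TLR3-MSC and 1518, 834, 1058, 1237 and 1476 after STING-MSC. It varied 3.50-fold over the 20 joints, the widest range of the 38 members. Car1, a carbonic anhydrase of red cells, ranged from 3559 (control 4) to 10877 (control 5), Bpgm, which makes the bisphosphoglycerate that lowers the affinity of hemoglobin for oxygen, from 10872 (MSC 2) to 26404 (TLR3-MSC 1), and Tspo2, an erythroid relative of the translocator protein, from 1275 (MSC 5) to 3507 (STING-MSC 5). Trim10, a ubiquitin ligase of erythroid cells, ranged from 4764 (MSC 2) to 15580.5 (TLR3-MSC 1), Hemgn, a target of Gata1 and Hoxb4, from 5688 (MSC 2) to 17586 (TLR3-MSC 1), and Bnip3l, which marks mitochondria for removal, from 6085 (MSC 5) to 11445 (TLR3-MSC 1). Bnip3l had the narrowest range of the members at 1.88-fold. Xpo7, a nuclear exporter used in chromatin condensation, ranged from 10585 (MSC 2) to 31166 (TLR3-MSC 1), and Tent5c, a poly(A) polymerase that erythroid cells express, from 10045 (MSC 2) to 28576 (TLR3-MSC 1).

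**Figure D1:**
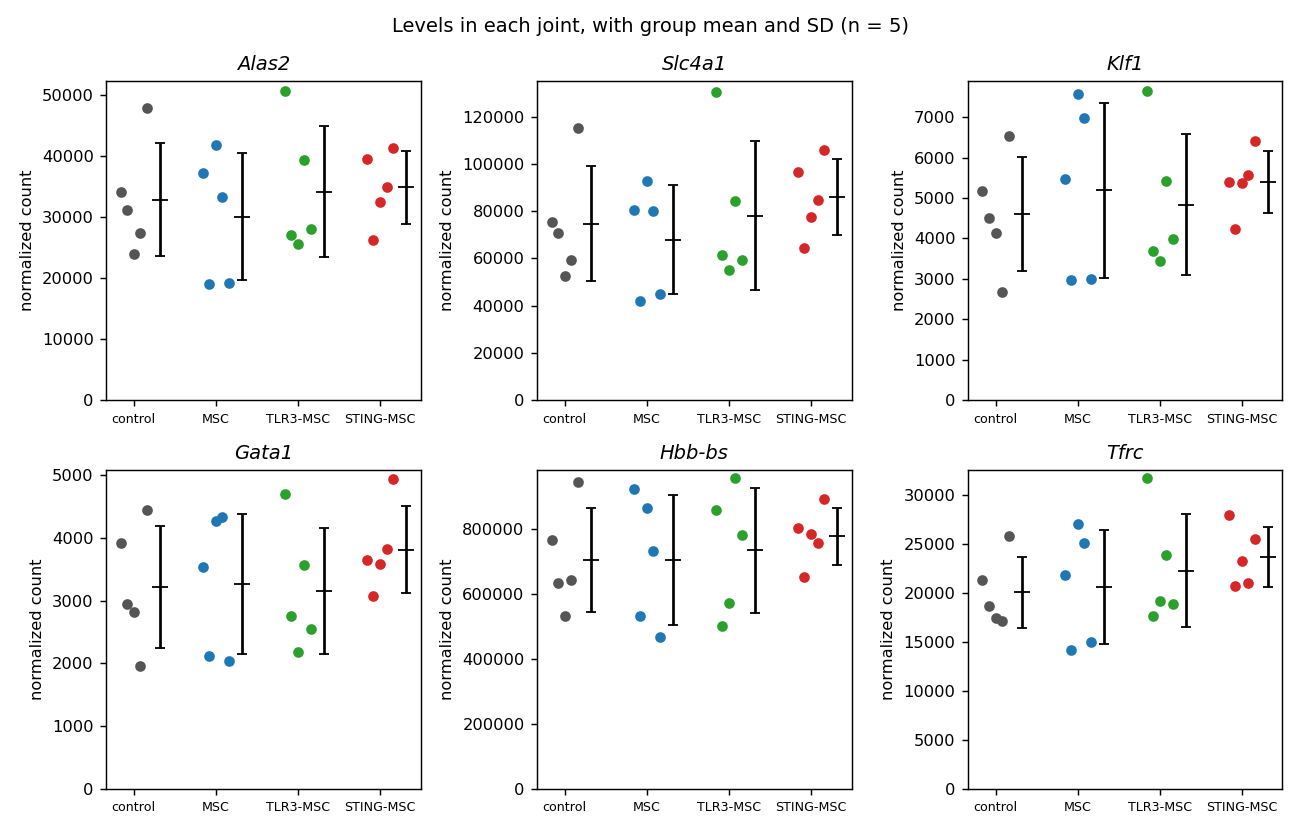
Normalized counts (y axis, from 0) of Alas2, Slc4a1, Klf1, Gata1, Hbb-bs and Tfrc in each of the 20 knee joints, as points by treatment group (x axis), with the group mean as a dash and the SD (n = 5) as bars. The groups overlap for all 6 genes, and MSC joints 2 and 5 are the lowest MSC joints in every panel.

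Whether the treatments differed in these genes was tested in limma, in 1 fit over the 20 joints, with values on a log2(normalized count + 1) scale. Between MSC and control joints, 0 of 38 members had an unadjusted p of at most 0.05, where 8.55% of all 14793 genes did. Alas2 differed by -0.16 (SE 0.25, 95% interval -0.68 to 0.36, limma p = 0.523, exact permutation p = 0.587), and Slc4a1 by -0.15 (SE 0.28, 95% interval -0.74 to 0.43, limma p = 0.586, exact permutation p = 0.603), on the log2 scale. Klf1 differed by 0.12 (SE 0.28, 95% interval -0.47 to 0.72, limma p = 0.674, exact permutation p = 0.746) and Gata1 by 0.00 (SE 0.26, 95% interval -0.53 to 0.54, limma p = 0.998, exact permutation p = 1.00). The exact tests permuted joints between the groups, two-sided, and could give no p below 0.00794. The members had fold changes from -0.30 for Tmod1 to 0.32 for Nfe2, with 13 above 0 and 25 below, and a median of -0.07, beside -0.04 over all genes. The direction rested on single joints: 1 member was above 0 without control 4, MSC 3 or MSC 4, 4 were without control 3 or MSC 1, and 28 were without control 5, MSC 2 or MSC 5, where the median lay between 0.06 and 0.08.

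Between TLR3-MSC and control joints, 0 of 38 members had an unadjusted p of at most 0.05, where 3.58% of all genes did. Alas2 differed by 0.05 (SE 0.25, 95% interval -0.48 to 0.57, limma p = 0.856, exact permutation p = 0.873) and Slc4a1 by 0.04 (SE 0.28, 95% interval -0.54 to 0.62, limma p = 0.890, exact permutation p = 0.905). For Klf1 the difference was 0.06 (SE 0.28, 95% interval -0.53 to 0.66, limma p = 0.824, exact permutation p = 0.817), and for Gata1 it was -0.03 (SE 0.26, 95% interval -0.56 to 0.51, limma p = 0.913, exact permutation p = 0.905). Fold changes of the members ran from -0.13 for Car1 to 0.33 for Trim58, 29 of them above 0, with a median of 0.04 beside -0.01 over all genes. Here too the count followed single joints. Without TLR3-MSC 1, the highest joint for 24 members, 5 members were above 0 and the median was -0.11, and without TLR3-MSC 4, control 3 or control 4 the counts were 16, 11 and 12. Without control 5 the count was 37 and the median 0.19.

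Between STING-MSC and control joints, 37 of 38 members had a fold change above 0, all but Hba-a2, but 0 of 38 had an unadjusted p of at most 0.05, where 12.2% of all genes did. Alas2 differed by 0.11 (SE 0.25, 95% interval -0.41 to 0.63, limma p = 0.666, exact permutation p = 0.603), Slc4a1 by 0.24 (SE 0.28, 95% interval -0.35 to 0.82, limma p = 0.406, exact permutation p = 0.310) and Klf1 by 0.28 (SE 0.28, 95% interval -0.32 to 0.87, limma p = 0.342, exact permutation p = 0.270). Gata1 differed by 0.28 (SE 0.26, 95% interval -0.25 to 0.82, limma p = 0.280, exact permutation p = 0.262). Trim58 had the highest fold change, 0.49 (SE 0.25, 95% interval -0.04 to 1.02, limma p = 0.0700, exact permutation p = 0.0714), and 3 of 5 STING-MSC joints lay above all control joints for it. The median over the members was 0.26, beside 0.01 over all genes, and the intervals of the single members include 0. The median was 0.16 without control 4 and 0.40 without control 5. The members varied together from joint to joint, so their signs are not independent of each other. With only these groups in the fit 2 members passed the threshold, 2 passed without control joint 5, and 1 without STING-MSC joint 2. The shares of all genes that passed in these other fits are not given here, so these counts have no background beside them.

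**Figure D2:**
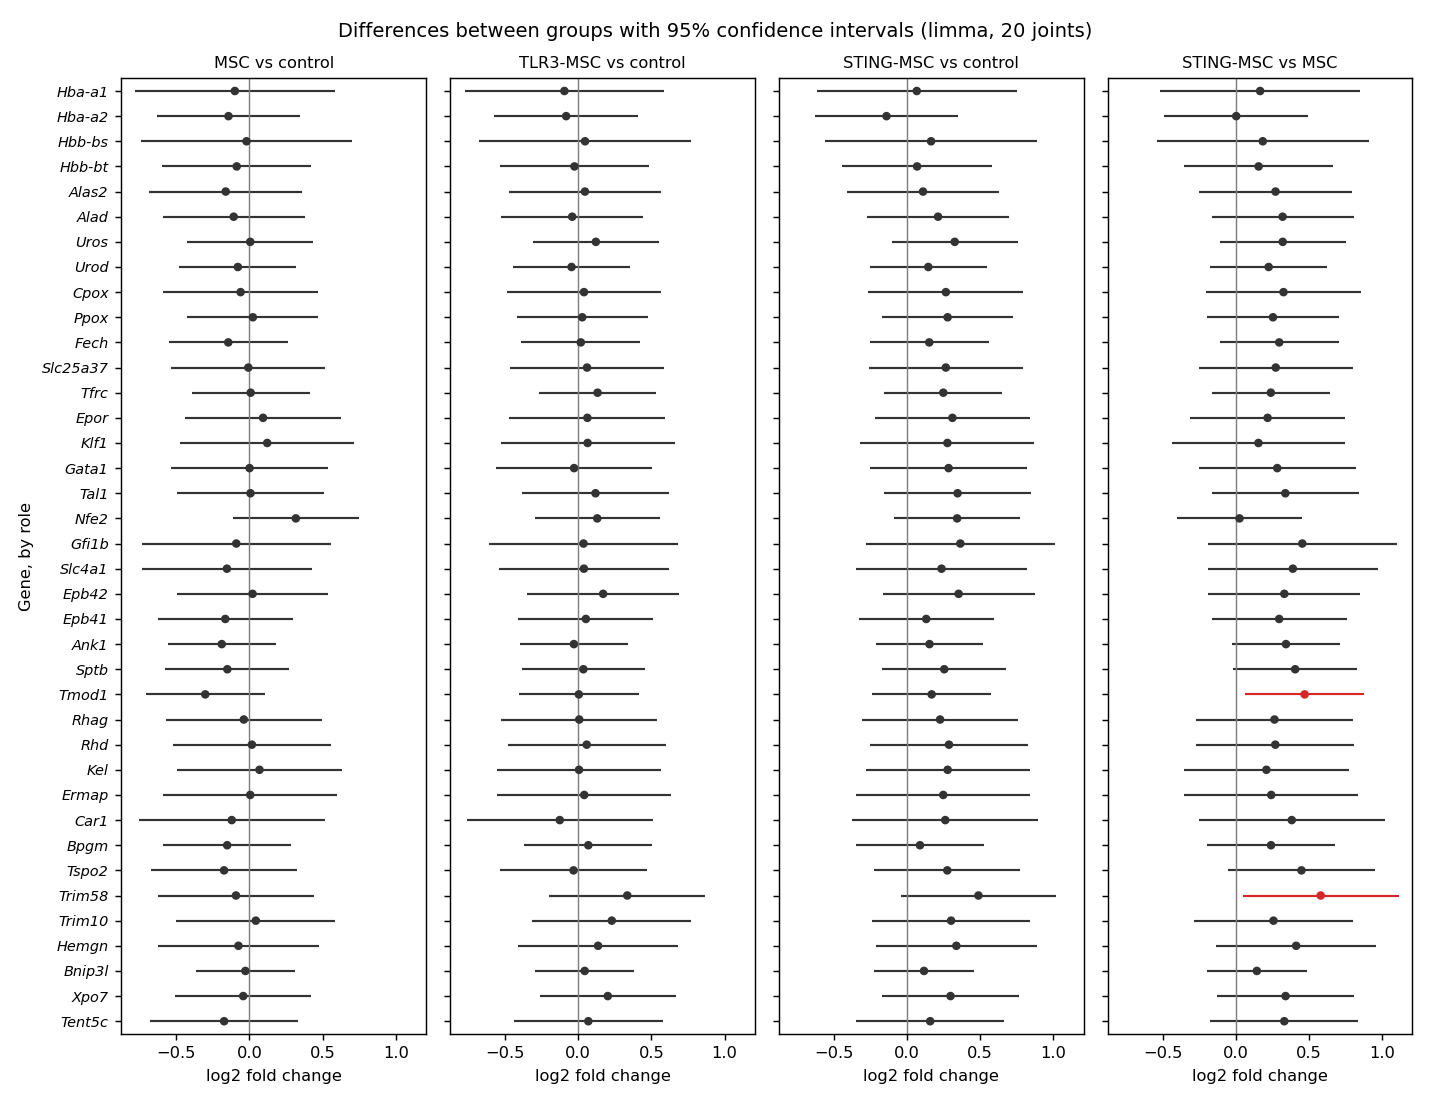
Log2 fold changes (x axis) of the 38 members (y axis, ordered by role) in 4 comparisons, one a panel, as points with 95% confidence intervals from limma; red marks an unadjusted p of at most 0.05. The points of MSC and TLR3-MSC against control lie on both sides of 0, those of STING-MSC against control lie above 0 for 37 of 38 members with intervals that include 0, and Tmod1 and Trim58 are the red points of STING-MSC against MSC.

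Among the MSC preparations, 0 of 38 members had an unadjusted p of at most 0.05 between TLR3-MSC and MSC joints (3.88% of all genes did), with 32 above 0 and a median log2 fold change of 0.11. Without TLR3-MSC 1, 12 were above 0 and the median was -0.06, without MSC 2 or MSC 5 16 were, and without MSC 5 1 member passed. Between STING-MSC and TLR3-MSC joints it was again 0 of 38 (2.57% of all genes), with 37 above 0 and a median of 0.20, which was 0.10 without TLR3-MSC 3, 0.13 without TLR3-MSC 5 and 0.36 without TLR3-MSC 1. Between STING-MSC and MSC joints, 2 of 38 members had an unadjusted p of at most 0.05, both higher after STING-MSC, where 4.94% of all genes passed and 2.77% passed with a higher level. They were Tmod1, by 0.47 (SE 0.19, 95% interval 0.06 to 0.88, limma p = 0.0261, exact permutation p = 0.0794), and Trim58, by 0.58 (SE 0.25, 95% interval 0.05 to 1.11, limma p = 0.0342, exact permutation p = 0.0714). The FDR was 0.938 for both. Over all 14793 genes, 8497 were above 0 between TLR3-MSC and MSC, 8181 between STING-MSC and TLR3-MSC and 8210 between STING-MSC and MSC joints. The medians over all genes were 0.03, 0.02 and 0.02, in this order. The members varied together, so their signs are not independent of each other here either. All 38 members had a fold change above 0 between STING-MSC and MSC joints, with a median of 0.28. The low MSC joints 2 and 5 moved it, since the median was 0.15 without either. The count past the threshold was 0 without MSC 2 or STING-MSC 1, 1 without MSC 1, MSC 5, STING-MSC 4 or STING-MSC 5, 4 without MSC 3 and 5 without MSC 4. The shares of all genes past the threshold with 1 joint left out are not given here, so these counts have no background beside them.

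No member passed an FDR of at most 0.05 in any of the 6 comparisons, in limma, in edgeR's quasi-likelihood test or in DESeq2 on the recovered reads. At an unadjusted p of at most 0.05, limma and DESeq2 called Tmod1 and Trim58 between STING-MSC and MSC joints, edgeR called Tmod1, and each tool called 0 members in the other 5 comparisons. Of all genes, 8.85%, 3.81%, 13.3%, 3.99%, 4.85% and 4.09% passed in edgeR and 9.71%, 4.26%, 15.2%, 4.7%, 6.28% and 4.58% in DESeq2, in the order MSC, TLR3-MSC and STING-MSC against control, TLR3-MSC and STING-MSC against MSC, and STING-MSC against TLR3-MSC. At the FDR, 0.00676% of all genes, a single gene, passed in limma between MSC and control, and 0 in its other 5 comparisons. In the order above, 15, 0, 0, 1, 0 and 0 genes passed in edgeR and 108, 3, 85, 7, 28 and 2 in DESeq2. A limma F-test of any difference among the 4 groups gave p of at most 0.05 for 0 of 38 members and for 6.42% of all genes, with a smallest p of 0.107 for Trim58. At this number of joints, the 95% interval of a member's difference from control reached 1.02 on the log2 scale for Trim58 and 0.63 for Alas2 after STING-MSC, so differences up to these sizes lie within the intervals.

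The values of Tmod1 followed muscle genes and not the other members. After subtracting group means, its correlation with Alas2 over the 20 joints was -0.252, the lowest of the members, and its correlation with Acta1, skeletal muscle alpha-actin, was 0.929. With the 8 skeletal muscle markers it ran from 0.471 to 0.929, with a median of 0.864. The normalized counts of Acta1 were 394852, 546241, 339792, 479579 and 499854 in the control joints, 187388, 294298, 226286, 445041 and 584842 after MSC, 238394, 493807, 621829, 294268 and 282121 after TLR3-MSC and 591555, 719637, 339961, 405791 and 296395 after STING-MSC. MSC 1 and MSC 3 were low for both Acta1 and Tmod1, and TLR3-MSC 3, STING-MSC 1 and STING-MSC 2 were high for both. The sums of the 8 muscle markers were 783241 to 2505130 in MSC and 1258710 to 3225080 in STING-MSC joints, and 6 of the 8 had a fold change above 0 between these groups, none with an unadjusted p of at most 0.05. The part of muscle in the difference of Tmod1 was not tested. For Trim58 the correlations with the muscle markers were negative, from -0.629 to -0.193, and its correlation with Alas2 was 0.960.

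Joints of the same group differed widely in these genes. Their SD within groups had a median of 0.404 on the log2 scale, from 0.268 to 0.524, beside a median of 0.260 over all genes. The highest joint held from 1.88 to 3.50 times the lowest, with a median of 2.60, beside 1.94 over the 14411 genes above 0 in every joint. Averaged over the 38 members, the deviation from each gene's mean ran from -0.65 in MSC 2 to 0.60 in TLR3-MSC 1, a 2.38-fold range. In control joint 5 all 38 members lay above their own mean, and in TLR3-MSC joint 1 37 of 38 did. In MSC joint 2 none did, and in MSC joint 5 1 did. The group averages were -0.06 ± 0.35 over the control joints, -0.11 ± 0.47 over the MSC joints, -0.01 ± 0.40 over the TLR3-MSC joints and 0.17 ± 0.20 over the STING-MSC joints (SD, n = 5). Averages over 5 joints lie within the range of the single joints by construction, so these 4 averages are not set against that range. The STING-MSC joints spanned the narrowest range, from -0.10 to 0.43. The correlation of this average with the log2 reads of a joint, after subtracting group means, was 0.274 over 20 joints.

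**Figure D3:**
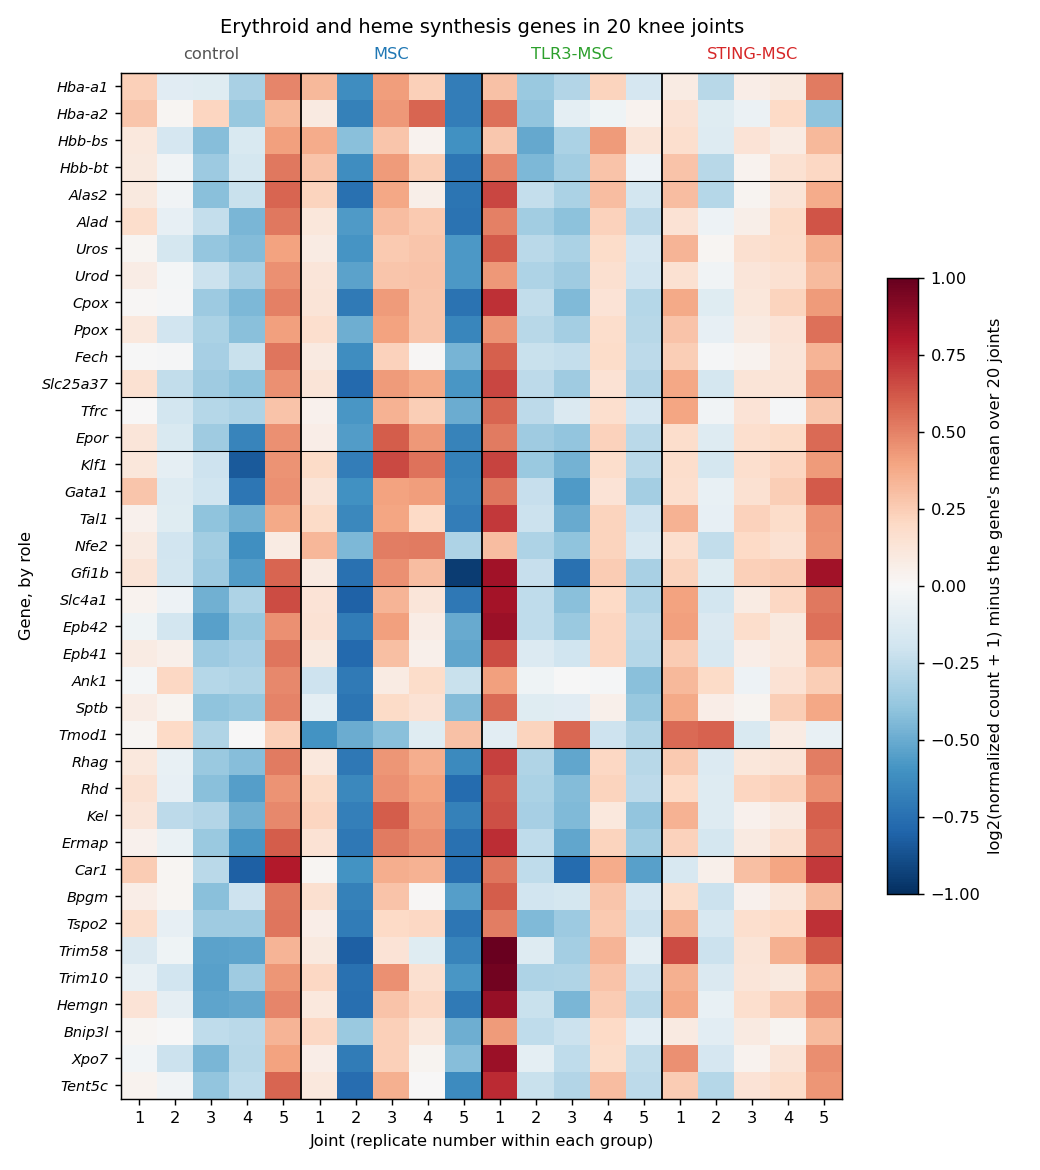
Log2(normalized count + 1) of the 38 members (rows, ordered by role) in the 20 joints (columns, by group and replicate number), minus each gene's mean over the joints, on a color scale from -1 (blue) to 1 (red). Columns change color as blocks: MSC joints 2 and 5 are blue and TLR3-MSC joint 1 and control joint 5 are red over nearly all rows, while the row of Tmod1 follows another pattern.

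The members varied as 1 block. After subtracting group means, the correlation with Alas2 over the 20 joints had a median of 0.960 over the other 37 members, and 32 of them exceeded 0.9. Over all other genes of the table the median was -0.07, and 580 of 14792 exceeded 0.9. The joints share library and depth between genes, and genes are not independent replicates, so these values are given as a description. The closest members were Bpgm (0.992), Tent5c (0.990), Slc4a1 (0.988), Trim10 (0.980) and Epb42 (0.977). Klf1 (0.914), Nfe2 (0.911), Gata1 (0.900) and Car1 (0.839) were lower, and Ank1 (0.744), Hba-a2 (0.709) and Tmod1 were the lowest. The median was 0.965 over the 16 broadly expressed members and 0.959 over the 21 others. The heme enzymes Cpox (0.975), Fech (0.973) and Ppox (0.966), which every nucleated cell needs, are given beside the globins Hbb-bt (0.977), Hba-a1 (0.939), Hbb-bs (0.896) and Hba-a2 (0.709). Of the 20 genes of the table closest to Alas2, 6 were members and 3 came from the lists of other erythroid and heme genes. The others included Isg20, Fzr1, Specc1 and Fhdc1, which were named after their values were seen.

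Alas2 was compared with markers of other cells over the 20 joints, after subtracting group means, in a family of 10 correlations tested with 100000 permutations within groups and adjusted over the family by the Benjamini-Hochberg method. Klf1 gave r = 0.914 (rho = 0.910, permutation p, adjusted, = 0.000150) and Gata1 r = 0.900 (rho = 0.902, permutation p, adjusted, = 0.000150). Of the markers of other marrow cells, Pf4, platelet factor 4 of megakaryocytes, gave r = 0.769 (rho = 0.765, permutation p, adjusted, = 0.00367). The neutrophil precursor genes gave r = 0.692 (rho = 0.650, permutation p, adjusted, = 0.0127) for Elane, neutrophil elastase, and r = 0.678 (rho = 0.671, permutation p, adjusted, = 0.0127) for Ngp, a granule protein. Vpreb1 of B cell precursors gave r = 0.399 (rho = 0.538, permutation p, adjusted, = 0.122), where the permutation p of rho, adjusted, was 0.0482. Markers of tissues other than marrow did not pass: Acta1 of muscle gave r = -0.496 (rho = -0.514, permutation p, adjusted, = 0.0987), Bglap of osteoblasts r = -0.127 (rho = -0.177, permutation p, adjusted, = 0.623), Col2a1 of cartilage r = -0.133 (rho = -0.155, permutation p, adjusted, = 0.623) and Adipoq of fat r = -0.225 (rho = -0.236, permutation p, adjusted, = 0.488). Without control joint 5 and TLR3-MSC joint 1, the joints farthest from the median of Alas2, r was 0.884 for Klf1, 0.865 for Gata1, 0.767 for Pf4, 0.769 for Elane and 0.802 for Ngp, and the same 5 relations passed. Over whole lists, r with Alas2 ran from 0.903 to 0.968 for 8 proliferation genes, from 0.769 to 0.860 for 12 megakaryocyte and platelet genes and from 0.450 to 0.742 for 16 neutrophil precursor genes. For 11 B cell precursor genes it ran from -0.578 (Ebf1) to 0.627 (Rag1), with a median of 0.520. It ran from -0.647 to -0.164 for 8 skeletal muscle genes and from -0.610 (Comp) to 0.0495 (Matn3) for 6 cartilage genes. For 8 osteoblast and osteocyte genes it ran from -0.453 (Col1a1) to 0.179 (Sost), and for 5 adipocyte genes from -0.383 to -0.167. The whole lists were not tested.

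**Figure D4:**
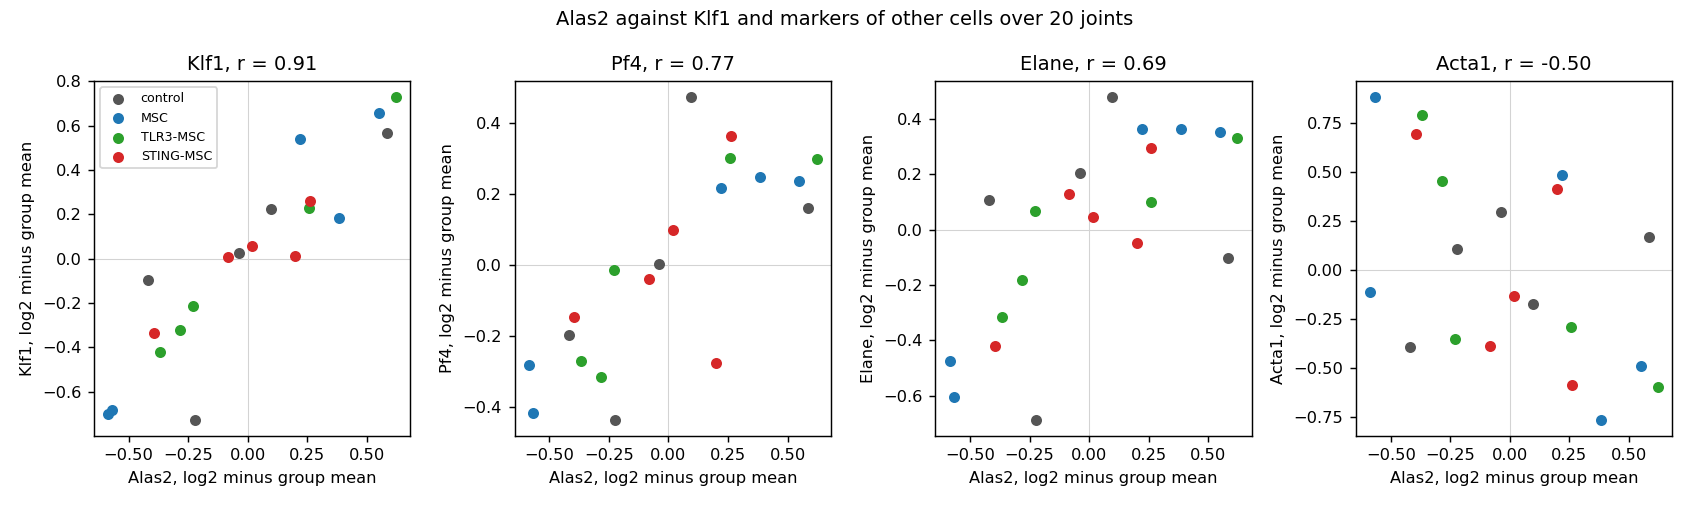
Log2(normalized count + 1) minus the group mean of Alas2 (x axis) against that of Klf1, Pf4, Elane and Acta1 (y axes, one a panel), with 1 point a joint and colors by group (n = 20). The points rise closely for Klf1 (r = 0.91), with more scatter for Pf4 (r = 0.77) and Elane (r = 0.69), and fall loosely for Acta1 (r = -0.50), which did not pass the test.

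Neutrophil precursors grow in the same marrow as erythroid cells, and their genes are set beside the members. Of the 16 neutrophil precursor genes, all 16 had a fold change above 0 after MSC, after TLR3-MSC and after STING-MSC against control, 9 with an unadjusted p of at most 0.05 after MSC and 13 after STING-MSC, where 5.64% and 6.54% of all genes passed with a higher level. The median fold changes were 0.50 and 0.53, where those of the erythroid members were -0.07 and 0.26. After TLR3-MSC 1 of the 16 passed, Mmp8, where 2.68% of all genes did, with a median of 0.27. The 9 genes past the threshold after MSC were Cebpe, Ltf, Camp, Chil3, Lcn2, Mmp8, S100a8, S100a9 and Retnlg. Elane was not among them, with a difference of 0.38 (exact permutation p = 0.262). After STING-MSC the same 9 passed, together with Elane, Prtn3, Ms4a3 and Fcnb. Whether the transcripts of this list came from precursors or from mature neutrophils was not tested. S100a8, the calcium-binding protein of neutrophils, was higher by 0.65 (SE 0.20, limma p = 0.00478, exact permutation p = 0.0238) after MSC and by 0.62 (SE 0.20, limma p = 0.00663, exact permutation p = 0.0159) after STING-MSC on the log2 scale, with FDR of 0.319 and 0.310. The deviations of the list were -0.32 ± 0.37 in control, 0.17 ± 0.42 in MSC, -0.06 ± 0.23 in TLR3-MSC and 0.21 ± 0.26 in STING-MSC joints (SD, n = 5). The MSC comparisons share the control joints, so the values are given side by side. This list was chosen with earlier results of these data known, and its genes are not independent of each other, so its counts are a description. Its deviations in control joints 1 to 5 were 0.15, -0.12, -0.34, -0.83 and -0.47. Its counts with 1 joint left out are not given here.

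The ratio of Ngp to Alas2, chosen after the values were seen, was 4.28, 3.71, 4.32, 2.68 and 1.92 in the control joints, 4.65, 5.39, 4.11, 5.91 and 5.32 after MSC, 2.74, 4.02, 4.14, 3.70 and 3.70 after TLR3-MSC and 3.44, 3.91, 4.86, 4.20 and 4.56 after STING-MSC. In 4 of 5 MSC joints it lay above all control joints, and MSC joints 2 and 5, the lowest for Alas2, lay within the range of the other MSC joints. The log2 difference of the ratio was 0.64 between MSC and control (exact permutation p = 0.0238, 0.0952 adjusted over 12 tests). Between TLR3-MSC and MSC it was -0.47 (exact permutation p = 0.0159, adjusted 0.0952), with 4 of 5 TLR3-MSC joints below all MSC joints. For Elane the ratio was 0.496, 0.450, 0.548, 0.276 and 0.237 in the control joints, 0.547, 0.599, 0.484, 0.612 and 0.541 after MSC, 0.333, 0.438, 0.422, 0.365 and 0.50 after TLR3-MSC and 0.417, 0.486, 0.574, 0.505 and 0.506 after STING-MSC. Its log2 difference between TLR3-MSC and MSC was -0.45 (exact permutation p = 0.0159, adjusted 0.0952), and between MSC and control 0.54 (exact permutation p = 0.0556, adjusted 0.167). None of the 12 passed after adjustment.

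**Figure D5:**
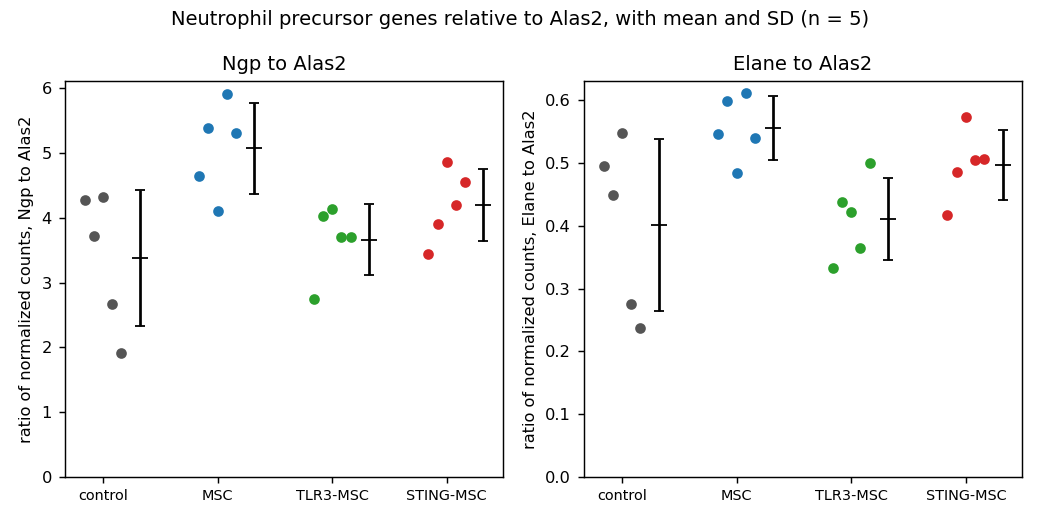
Ratio of the normalized counts of Ngp (left) and Elane (right) to those of Alas2 (y axes, from 0) in each joint by group (x axis), with the mean as a dash and the SD (n = 5) as bars. The MSC joints lie between 4.11 and 5.91 for Ngp, with 4 of 5 TLR3-MSC joints below them all, and the control joints spread from 1.92 to 4.32.

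Other genes of the lineage were taken from lists. Of 54 other erythroid genes, 49 were in the table. Between STING-MSC and control joints 42 of the 49 had a fold change above 0, with a median of 0.18. There, 2 were higher and 2 lower at an unadjusted p of at most 0.05, shares near the 6.54% and 5.69% of all genes. After MSC 1 was higher, where 5.64% of all genes were, and after TLR3-MSC 0 passed, where 3.58% of all genes did. Group means of normalized counts, in the order control, MSC, TLR3-MSC and STING-MSC, are given for the list's genes of highest count: Aqp1, a water channel that endothelium also uses (28189.8, 26233, 28499 and 26914), Prdx2, a peroxiredoxin of red cells (19887, 20528, 20632 and 21891), and Ctse, cathepsin E (15284, 14927, 14769.9 and 16961). Cited2, a co-activator needed by blood stem cells, was higher after MSC by 0.35 (SE 0.11, limma p = 0.00564, exact permutation p = 0.0238) and after STING-MSC by 0.37 (SE 0.11, limma p = 0.00364, exact permutation p = 0.0317), and Cbfa2t3, a co-repressor in the Gata1 and Tal1 complex, was higher after STING-MSC by 0.26 (SE 0.10, limma p = 0.0185, exact permutation p = 0.00794). For Cbfa2t3 all 5 STING-MSC joints lay above all control joints, which 0.933% of all genes showed.

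Of the other erythroid genes, Socs3, an inhibitor of cytokine signalling in many cells, had normalized counts of 778, 1339.8, 1539, 2571 and 724 in the control joints, 974, 2938, 1026, 929 and 1779 after MSC, 709.7, 1426, 1162, 637 and 1883 after TLR3-MSC and 700.2, 723, 778, 606 and 548 after STING-MSC. The 5 STING-MSC joints lay below all 5 MSC joints (0.548% of all genes were lower without overlap), and the log2 difference was -1.04 (SE 0.37, limma p = 0.0107, exact permutation p = 0.00794) from MSC and -0.90 (SE 0.37, limma p = 0.0241, exact permutation p = 0.0159) from control. Its correlation with Alas2 over the 20 joints, after subtracting group means, was -0.802, the lowest of the list. Erfe, erythroferrone, which precursors secrete to free iron, was low, at 43.4, 38.7, 57.8, 90.4 and 80.3 in the control joints, 35.5, 85.0, 40.8, 45.3 and 34.6 after MSC, 54.8, 42.9, 33.5, 23.8 and 129 after TLR3-MSC and 68.2, 35.5, 16.7, 18.7 and 32.6 after STING-MSC. Its log2 difference was -0.94 (SE 0.43, limma p = 0.0404, exact permutation p = 0.0556) between STING-MSC and control joints, where Epor did not pass. Cish, of the same family as Socs3, had a log2 difference of -1.32 (SE 0.54, limma p = 0.0251, exact permutation p = 0.0238) between TLR3-MSC and MSC. Jak2, the kinase of the erythropoietin receptor, had higher values in STING-MSC than in MSC joints, by 0.17 (SE 0.08, limma p = 0.0481, exact permutation p = 0.0238). Each of these genes had an FDR above 0.05.

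Of 26 other heme and iron genes, all in the table, 18 had a fold change above 0 after STING-MSC against control, 2 higher and 1 lower at an unadjusted p of at most 0.05, where 6.54% of all genes were higher and 5.69% lower. Alas1, the enzyme of the first step in cells other than red cell precursors, had normalized counts of 3919.9, 4216, 3669.5, 3224 and 3479.5 in the control joints, 3887, 3378, 4549, 5185 and 4025 after MSC, 4004, 3700.3, 4700.1, 4343 and 4007 after TLR3-MSC and 5212, 4730.0, 4803, 4654 and 5006 after STING-MSC. All 5 STING-MSC joints lay above all control joints (which 0.933% of all genes showed), by 0.40 (SE 0.10, limma p = 0.000709, exact permutation p = 0.00794) on the log2 scale, with an FDR of 0.274. It was also higher than after MSC, by 0.23 (SE 0.10, limma p = 0.0335, exact permutation p = 0.0714), and than after TLR3-MSC, by 0.24 (SE 0.10, limma p = 0.0283, exact permutation p = 0.0159). Alas2, its erythroid counterpart, did not pass in any of these comparisons, and the mean ratio of Alas2 to Alas1 was 8.97 ± 2.82 in control, 7.12 ± 2.15 in MSC, 8.31 ± 2.76 in TLR3-MSC and 7.13 ± 1.03 in STING-MSC joints (SD, n = 5). Steap3, the reductase that prepares endosomal iron for use, had 3548, 3722, 4117, 4849.6 and 4304 in the control joints, 3183, 4454, 3511, 2548 and 3484 after MSC, 4405, 4181, 3668, 3704 and 4297 after TLR3-MSC and 3511, 3256, 2975, 3763 and 2949 after STING-MSC. Its log2 difference was -0.27 (SE 0.12, limma p = 0.0367, exact permutation p = 0.119) after MSC and -0.32 (SE 0.12, limma p = 0.0168, exact permutation p = 0.0317) after STING-MSC against control, and -0.30 (SE 0.12, limma p = 0.0221, exact permutation p = 0.0238) between STING-MSC and TLR3-MSC. Tspo, the broadly used translocator protein, was higher after STING-MSC by 0.23 (SE 0.10, limma p = 0.0331, exact permutation p = 0.0238). The ferritin heavy chain Fth1 (69981, 70832, 70332 and 69178) and Glrx5 of iron-sulfur assembly (9107, 9110.4, 8867 and 9888) did not pass.

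For heme breakdown and iron recycling, which macrophages perform on old red cells, 13 of 15 genes were in the table. After STING-MSC 3 of the 13 were higher than in control at an unadjusted p of at most 0.05, where 6.54% of all genes were. After MSC and after TLR3-MSC 1 was, where 5.64% and 2.68% of all genes were. Hp, haptoglobin, which binds free hemoglobin and is also made by maturing neutrophils, had normalized counts of 20546, 14146, 13338, 11785 and 12485 in the control joints, 24835, 20472, 22036, 23039 and 17157 after MSC, 18813, 16293, 19189, 24190.5 and 18225 after TLR3-MSC and 19799.6, 17461, 22473, 21769 and 23538 after STING-MSC. It was higher than in control after MSC by 0.59 (SE 0.14, limma p = 0.000644, exact permutation p = 0.0238), after TLR3-MSC by 0.44 (SE 0.14, limma p = 0.00714, exact permutation p = 0.0397) and after STING-MSC by 0.56 (SE 0.14, limma p = 0.00104, exact permutation p = 0.0238). The neutrophil precursor list moved with it in these comparisons, with the counts given above, and its part was not tested. Trf, transferrin, and Slc11a1, the iron transporter of phagosomes, were higher after STING-MSC, by 0.31 (SE 0.13, limma p = 0.0300, exact permutation p = 0.103) and 0.29 (SE 0.10, limma p = 0.0107, exact permutation p = 0.0159). The heme oxygenase Hmox1 had group means of 9399.8, 8716, 8433 and 9374 and did not pass, and Lrp1, a receptor that takes up bound heme, had 41494, 32717, 41663 and 26938.

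Lists of other cells are given beside the comparison of STING-MSC with control in which 37 of 38 members had a higher mean. All 8 proliferation genes and all 12 megakaryocyte and platelet genes also had a fold change above 0 there, with medians of 0.21 and 0.36 and 0 past an unadjusted p of 0.05. The summed normalized counts were 48925 to 91701 in control and 57456 to 93489 in STING-MSC joints for proliferation, and 28922 to 65955 and 44827 to 81404 for megakaryocytes. Of 11 B cell precursor genes 1 was above 0 and 1, Ebf1, was lower past the threshold, with sums of 12552 to 16498 and 8539 to 18015. Of 6 cartilage genes 0 were above 0, with sums of 198873 to 712017 and 92849.6 to 238721, of 8 osteoblast and osteocyte genes 3 were, and of 8 muscle genes 3 were. Of 6 mast cell genes all 6 were above 0, 2 of them past the threshold, and of 5 adipocyte genes all 5. Of all 14793 genes, 7644 were above 0 in this comparison, and 6.54% were higher and 5.69% lower past the threshold. The part of marrow share, and of the amounts of the other tissues taken, in the levels of the erythroid genes was not tested. In limma, no gene of any of these lists passed an FDR of at most 0.05 in the comparisons with control.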

How the data were processed

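RNA from the right knee joints of 20 mice in 4 groups of 5 was sequenced as polyA libraries made with a TruSeq RNA kit. Per the study's methods and the submitters' processing notes, the authors aligned reads to GRCm39 with STAR 2.7.3a, counted them per gene with HTSeq and deposited normalized counts (a signal scaled by DESeq2's median-ratio size factors) for 14793 genes. Whether counting used strand is not given in the sources used here. The members and gene lists were chosen with earlier results of these data known.

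In each joint, values fell on even steps that stand for single reads, from which reads were recovered (within 0.1 of a whole number for 99.8% to 99.9% of the values of a joint), with 27955496 to 52529973 reads a joint. The main test was limma 3.58.1 (R 4.3.3, with a trend) on log2(normalized count + 1), with 4 groups, no block and Benjamini-Hochberg adjustment over all genes. A minimum mean of 5 removed 0 genes. On this scale the fold change of a low gene is understated. Single values were tested by exact two-sided permutation of 5 joints against 5. Also tried were a pseudocount of 0.5 or 5, a filter at a mean of 20, fits of only the groups compared, quantile normalization, the replicate number as a block, leaving out each joint, and edgeR 4.0.16 (quasi-likelihood, TMM) and DESeq2 1.42.0 on the recovered reads. The limma fit was checked on simulated counts, in which genes were drawn independently of each other. The members varied together, so their counts past a threshold were not checked there, and neither were the permutation tests.

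Full statistics are given for Alas2, Slc4a1, Klf1 and Gata1 against control and for members with an unadjusted p of at most 0.05. From the lists, the 3 most abundant genes and those past that threshold could be named. Ratios between genes, and the genes closest to Alas2, were chosen after values were seen. Correlations used scipy 1.17.1 and numpy 2.4.6. Transcript starts, lengths and sequences came from the GRCm39 reference annotation, in which 14770 of 14793 gene identifiers were found.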

Additional observations from a re-analysis of the deposited data

How the results depend on the processing

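The count of members with an unadjusted p of at most 0.05 was 0 against control in every comparison, and so it was with pseudocounts of 0.5 and 5, a minimum mean of 20, quantile normalization, edgeR and DESeq2. With only the groups compared it was 2 for STING-MSC against control. For STING-MSC against MSC it was 2, against 3 with only the groups compared and 1 with edgeR, where Trim58 had a log2 fold change of 0.54 and an unadjusted p of 0.0536. The causes were not tested. For fits of only the groups compared, and for those below with 1 joint left out, the shares of all genes are not given here. With 1 joint left out at a time the count ranged from 0 to 1 for MSC against control, 0 to 2 for STING-MSC against control, 0 to 1 for TLR3-MSC against MSC and 0 to 5 for STING-MSC against MSC, and was 0 in the other comparisons. The median log2 fold change of the members then against control ranged from -0.18 to 0.08 after MSC, -0.11 to 0.19 after TLR3-MSC and 0.16 to 0.40 after STING-MSC, and from -0.06 to 0.22 for TLR3-MSC against MSC. It ranged from 0.15 to 0.40 for STING-MSC against MSC and from 0.10 to 0.36 for STING-MSC against TLR3-MSC.

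For single genes, leaving out 1 joint gave log2 fold changes of MSC over control from -0.30 to -0.02 for Alas2, -0.285 to 0.0156 for Slc4a1, -0.0602 to 0.296 for Klf1 and -0.16 to 0.15 for Gata1. For TLR3-MSC over control they ran from -0.11 to 0.19 for Alas2, -0.17 to 0.21 for Slc4a1, -0.12 to 0.21 for Klf1 and -0.19 to 0.10 for Gata1. For STING-MSC over control they ran from 0.0046 without control 3 to 0.26 for Alas2, 0.12 to 0.41 for Slc4a1, 0.09 to 0.42 for Klf1 and 0.12 to 0.41 for Gata1, and between STING-MSC and MSC they ran from 0.37 to 0.61 for Tmod1 and 0.44 to 0.71 for Trim58.

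With the replicate number as a block, the count for STING-MSC against MSC was 2 and the other counts were 0, as without it. The mean correlation of same-numbered joints lay between -0.144 and 0.108 for the 6 pairs of groups, with single pairs of joints from -0.658 to 0.464 between MSC and control. The labels do not say what same-numbered joints share beyond the number. When group means were not subtracted, r of Alas2 was 0.58 with Elane and 0.53 with Ngp, and the same 5 of 10 relations passed as in the report. No member was at 0 in any joint.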

Other observations

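The ratio of Slc4a1, the anion exchanger of late precursors, to Alas2, the enzyme that opens heme synthesis, was chosen after its values were seen and was not tested. It had the narrowest range of the 9 ratios computed, from 2.10 (TLR3-MSC 5) to 2.58 (TLR3-MSC 1) over the 20 joints, although Alas2 varied 2.67-fold and Slc4a1 3.11-fold. The STING-MSC joints had ratios of 2.45, 2.46, 2.38, 2.43 and 2.56, against 2.21, 2.28, 2.21, 2.17 and 2.40 in the control joints. In 4 of 5 STING-MSC joints the ratio therefore lay above all control joints. The MSC joints had 2.16, 2.21, 2.22, 2.41 and 2.32, and MSC joints 2 and 5, lowest for both genes, did not stand apart. In the TLR3-MSC joints it was 2.58, 2.27, 2.15, 2.13 and 2.10, with the highest value in the joint that was highest for both genes.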
